A study of Rattus norvegicus with 12 samples.

Results

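A set of 33 nuclear genes for the import of proteins into mitochondria, and for their folding inside, was followed through 12 RNA libraries of rat muscle mitochondria. They are the genes among 30560 in the deposited count table whose name starts with Tomm or Timm and a digit, or is Samm50, Mtx1, Mtx2, Pmpca, Pmpcb, Grpel1, Hspa9, Hspd1, Hspe1, Chchd4, Pam16 or Dnajc19. All 33 had reads in every library and passed the filter on low counts. Hindlimb muscle (gastrocnemius, per the series design) came from 1 wild-type animal, a male Wistar Kyoto rat of 14 weeks, and aliquots of its pooled homogenate gave 4 groups of 3 libraries. The crude_RNase group was pelleted by differential centrifugation, the IP_RNase group was captured by immunoprecipitation on magnetic beads, the IP_RNase_ProK group was also treated with proteinase K after capture, and the mitoplast_RNase group was captured and stripped of the outer membrane. Every group had received RNase A, which degrades accessible RNA. Libraries were made from 6.3 ng of RNA in crude_RNase and from 40 ng in the other groups, so the amount of RNA and the isolation method cannot be told apart. Because all aliquots share 1 homogenate, the errors and tests cover the spread between aliquots only, which may be technical. In such bulk preparations, fewer cells or organelles of a kind and less RNA in each cannot be told apart.

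Nearly all mitochondrial proteins are encoded in the nucleus, made on cytosolic ribosomes and imported. The TOM complex of the outer membrane admits precursors, the SAM complex inserts barrel proteins, small TIM chaperones escort carriers across the intermembrane space to TIM22, and TIM23 passes proteins with a cleavable presequence to a motor driven by the matrix Hsp70. Peptidases then remove the presequence, and the chaperonin of Hsp60 and Hsp10 folds the product. The messages of these genes are nuclear transcripts and do not arise inside the organelle, although ribosomes that make mitochondrial proteins can sit on the outer membrane.

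Counts summed to between 6583452 and 7123045 in the crude_RNase libraries and between 3325430 and 4563254 in the others. The 33 genes together took 3549, 3126 and 3051 counts in crude_RNase 1, 2 and 3, and 2850 to 3890 counts elsewhere. Single genes had 16 to 299 counts per library, and the median of the 33 was 67 to 94, close to the 63 to 97 over all genes in the table. The 1117 olfactory receptor genes, which muscle does not normally transcribe, had a median of 30 to 49. Levels below are CPM, counts scaled to 1e+06 per library by a library size adjusted by TMM (trimmed mean of M values) scaling. The libraries do not all stand together: crude_RNase 1 differed from the other crude libraries by a chi-square of 12.0 and 12.1 per degree of freedom, against 4.43 between those, and IP_RNase 3 had 5.59% of its counts in the 13 mitochondrial mRNAs, against 2.56% and 3.85% in its group. Muscle fibre markers had counts in every library: Acta1, skeletal actin, had 6531 to 7102 in crude_RNase and 91 to 162 in the captured groups. In the captured groups Ckm had 87 to 116 counts and Mylpf 51 to 93, beside a median of 70 to 97 over all genes. Counts above 0 there do not show muscle message above background. In the captured groups the 33 genes had a median of 67 to 86 counts, close to that of all genes. The olfactory receptor genes had a median of 37 to 49 there. How much of the counts of the 33 genes was background was not tested, nor its part in their fold changes. The summed level of 12 muscle fibre markers, of which 0 were at 0 counts in any library, was 5929 to 7578 CPM in crude_RNase, 899 to 1027 in IP_RNase, 886 to 931 in IP_RNase_ProK and 959 to 1147 in mitoplast_RNase. That of 6 fibroblast and matrix markers was 1560 to 1705 CPM in crude_RNase and 353 to 393 in the captured groups, while 5 endothelial markers stood at 439 to 464 and 417 to 453. Macrophage and leukocyte markers stood at 266 to 277 and 234 to 261, and erythroid ones at 67.2 to 83.5 and 53.8 to 60.7. Schwann cell markers stood at 130.4 to 146.0 and 105.3 to 129.7. Adipocyte markers overlapped, at 128 to 185 and 126 to 140. These shifts move with the comparisons against crude_RNase below, and their part in them was not tested.

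The first question was whether messages of the import machinery were as abundant in captured as in centrifuged mitochondria, relative to the other genes. Most of the 33 did not pass the test, and those that did were lower after capture. Hspa9, Timm23 and Hspe1 were called lower in each of the 3 captured groups, 4 further genes in 1 or 2 of them, and 0 genes were called higher. Between IP_RNase and crude_RNase, 4 of 33 genes (12.1%) fell, beside 5.09% of all 26483 genes tested, and 0 rose, beside 1.26% (6.36% in either direction; edgeR quasi-likelihood test, Benjamini-Hochberg adjusted p under 0.05). Against crude_RNase, 7 of 33 (21.2%) fell in IP_RNase_ProK, beside 5.04% of all genes, and 3 of 33 (9.09%) in mitoplast_RNase, beside 4.54%. In these groups 0 rose, beside 1.45% and 0.997% of all genes (6.49% and 5.54% in either direction). At an unadjusted p under 0.05, 0, 1 and 1 genes were higher, beside 7.43%, 7.30% and 6.74% of all genes, and 12, 13 and 10 lower, beside 10.5%, 10.5% and 9.95%. DESeq2 called 4, 3 and 3 genes, all lower, beside 3.79%, 3.64% and 3.47% of all genes. Without crude_RNase 1, 7 genes were called in IP_RNase and 6 in mitoplast_RNase, all lower, beside 5.21% and 5.55% of all genes lower. In IP_RNase_ProK the count was 4 without any 1 of IP_RNase_ProK 1, IP_RNase_ProK 2, crude_RNase 2 or crude_RNase 3. In those fits 3.78% to 4.45% of all genes were called lower. The 3 comparisons share their crude_RNase libraries and are given side by side, not as repeats of each other.

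The median log2 fold change of the 33 genes was -0.20, -0.24 and -0.12 in IP_RNase, IP_RNase_ProK and mitoplast_RNase, beside 0.01, 0.00 and 0.00 for all genes. Values below 0 were found for 29, 26 and 25 of the 33, beside 48.7%, 49.3% and 48.9% of all genes. In all 3 comparisons, which share their crude_RNase libraries, 22 of the 33 were below 0. CPM ranges lay wholly below those of crude_RNase for 7 genes (21.2%) in IP_RNase, beside 10.8% of all genes, for 13 (39.4%) in IP_RNase_ProK, beside 11.3%, and for 10 (30.3%) in mitoplast_RNase, beside 10.7%. They lay wholly above for 1, 1 and 0 genes, beside 8.61%, 9.12% and 8.26% of all genes. These directions are relative to TMM scaling, under which the median of all genes is near 0. Scaled by library size alone, which moves that median by 1.02, 1.08 and 1.07, 30, 32 and 30 of the 33 were called higher, with 94.8%, 95.3% and 95.3% of all genes, and 0 lower. Scaled on the 13 mitochondrial mRNAs, which moves it by 3.81, 4.94 and 4.93, all 33 were called higher in each comparison, with 99.8%, 99.9% and 99.9% of all genes. Scaled on the olfactory receptor genes, which moves it by -0.22, -0.12 and -0.11, 14, 9 and 6 were called lower and 0 higher, beside 16.9%, 7.49% and 6.64% of all genes lower.

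**Figure D1:**
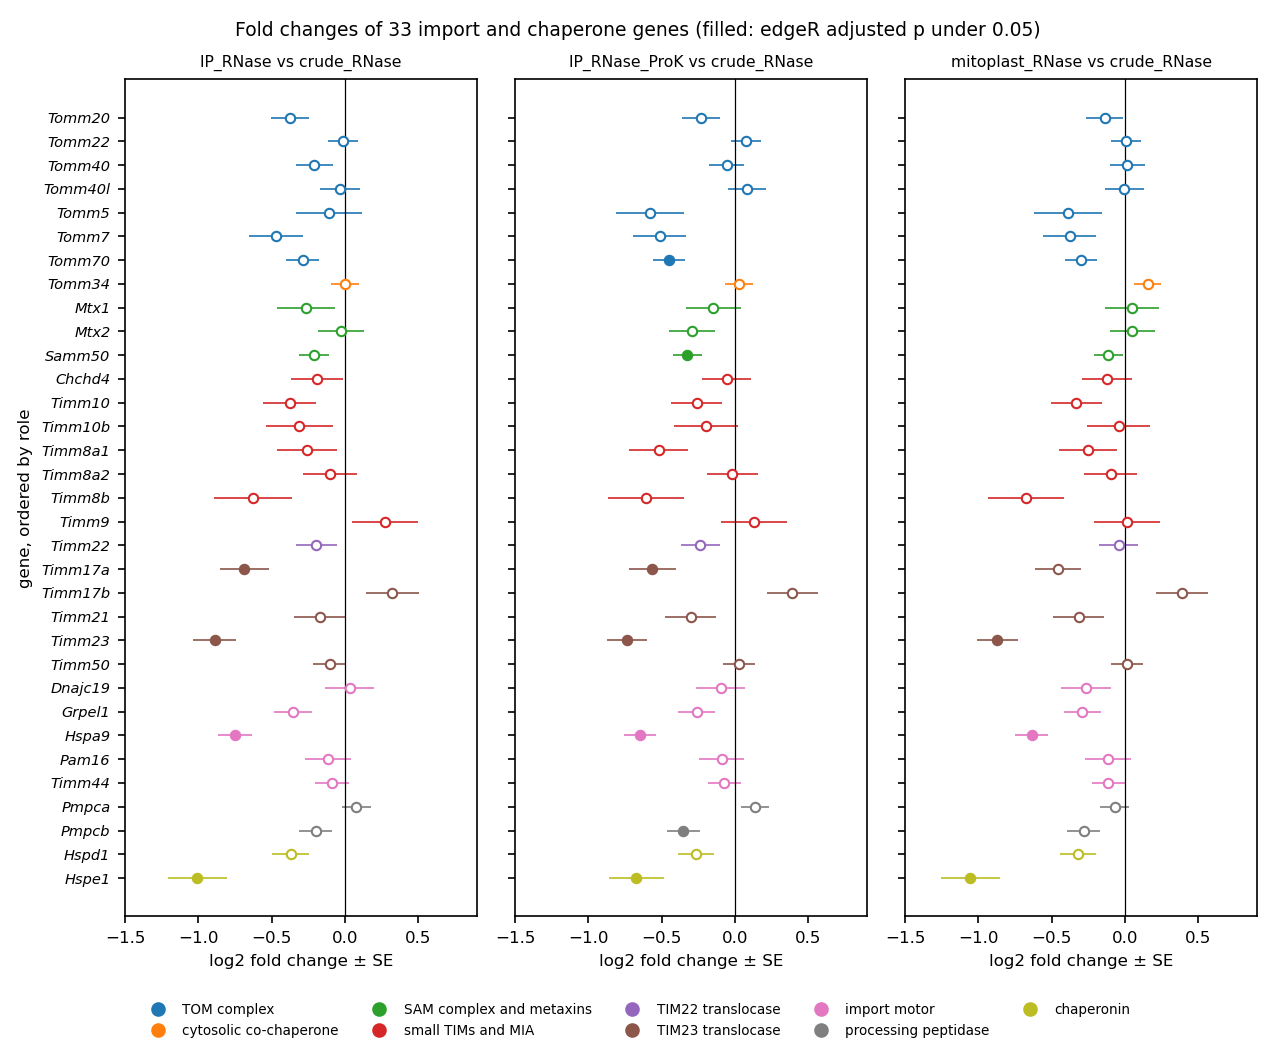
Log2 fold change (x axis, with its SE) of each of the 33 genes (y axis, grouped and coloured by role) in the 3 captured groups against crude_RNase. Filled points passed the edgeR test: 4, 7 and 3 genes from left to right, all of them below 0.

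**Figure D2:**
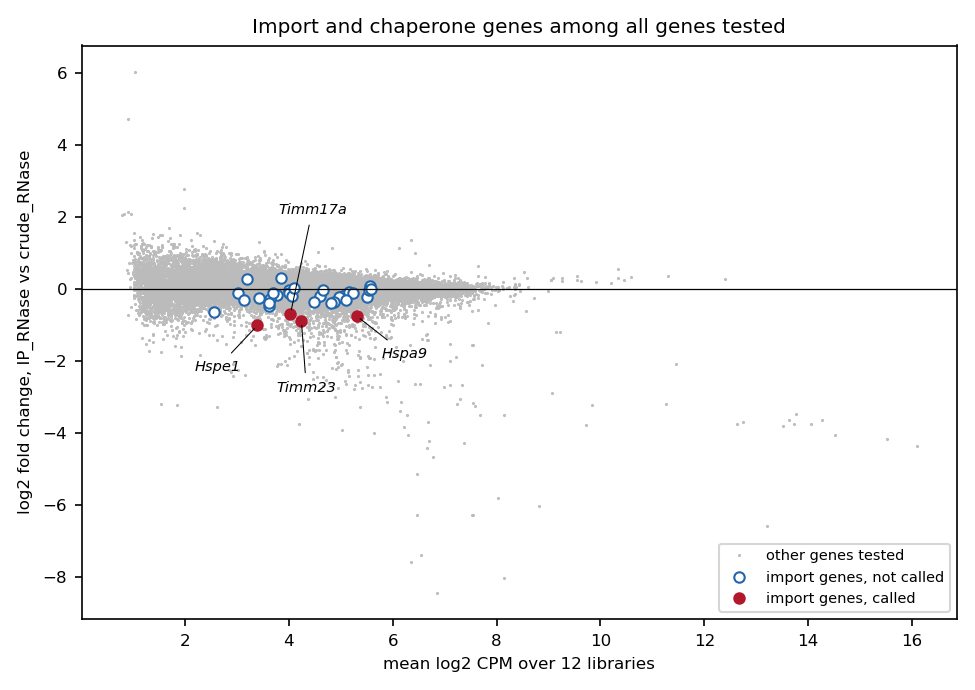
Log2 fold change between IP_RNase and crude_RNase (y axis) against mean log2 CPM (x axis) for all 26483 genes tested, with the 33 import and chaperone genes circled and the 4 called ones filled. Hspe1, Timm23, Hspa9 and Timm17a lie in the lower part of the cloud, between -0.69 and -1.01. Of all genes tested, 1.30% lie below Hspe1 and 2.64% below Timm17a.

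The TOM complex, the entry gate of the outer membrane, had 7 genes in the table. By edgeR 0 of the 7 passed in IP_RNase and in mitoplast_RNase. In these groups 3 and 2 were lower at an unadjusted p under 0.05, beside 10.5% and 9.95% of all genes. In IP_RNase_ProK 1 fell, beside 5.04% of all genes. That gene was Tomm70 (ENSRNOG00000001640), the receptor for carrier precursors brought by cytosolic chaperones, with 34.8, 41.8 and 45.4 CPM in crude_RNase and 31.6, 26.0 and 30.6 in IP_RNase_ProK. The groups did not overlap, and the log2 fold change was -0.45 ± 0.111 (SE; edgeR adjusted p = 0.00453). Its levels were 35.0, 31.4 and 32.8 CPM in IP_RNase, where the highest library overlapped crude_RNase (-0.29 ± 0.112, edgeR adjusted p = 0.123), and 32.2, 32.6 and 33.5 in mitoplast_RNase, without overlap (-0.30 ± 0.109, adjusted p = 0.104). The call in IP_RNase_ProK ended without IP_RNase_ProK 2 or crude_RNase 3 (adjusted p = 0.0657 and 0.0667), and without crude_RNase 1 the gene was also called in IP_RNase (adjusted p = 0.0208) and in mitoplast_RNase.

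Tomm20 (ENSRNOG00000019980), the presequence receptor, had 25.3, 31.6 and 37.6 CPM in crude_RNase and 22.9, 21.9 and 27.3 in IP_RNase, overlapping, at -0.37 ± 0.132 (edgeR adjusted p = 0.0817). It was called without crude_RNase 1 (-0.52, adjusted p = 0.00643) or IP_RNase 3 (-0.48, adjusted p = 0.0496). Tomm7 (ENSRNOG00000043114), a small subunit that modulates assembly of the complex, was among the 2 lowest of the uncalled genes. It had 14.4, 15.3 and 15.4 CPM in crude_RNase against 12.8, 10.5 and 9.16 in IP_RNase, without overlap, at -0.47 ± 0.184 (edgeR adjusted p = 0.132). Tomm22 (ENSRNOG00000014058), the central receptor, was at -0.01, 0.07 and 0.00 in the 3 comparisons. Its levels were 45.1, 46.0 and 45.4 CPM in crude_RNase and 43.1, 52.5 and 39.9 in IP_RNase (SE of the log2 fold change 0.104). Tomm40, the channel itself, was at -0.21, -0.06 and 0.02 in the 3 comparisons, its paralog Tomm40l at -0.04, 0.08 and -0.00, and the small subunit Tomm5 at -0.11, -0.58 and -0.39, all short of the threshold. Tomm5 was called in IP_RNase_ProK without IP_RNase_ProK 1. Tomm34 (ENSRNOG00000029799), a cytosolic co-chaperone of Hsp70 and Hsp90 with a TOM name, had the most counts of the uncalled genes. Its levels were 42.8, 45.8 and 49.3 CPM in crude_RNase and 47.3, 41.6 and 48.3 in IP_RNase, at -0.00 ± 0.0968 (edgeR adjusted p = 0.999), which alternative settings placed on either side of 0.

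Of the SAM genes, Samm50 (ENSRNOG00000011952), the barrel that inserts other barrel proteins, passed the test in IP_RNase_ProK. It had 46.4, 50.6 and 53.3 CPM in crude_RNase, 39.9, 43.3 and 36.5 in IP_RNase_ProK, 35.7, 48.3 and 45.8 in IP_RNase and 45.3, 44.4 and 48.8 in mitoplast_RNase. Only the IP_RNase_ProK libraries lay wholly below the crude ones, at -0.32 ± 0.101 (edgeR adjusted p = 0.0386). The fold changes in IP_RNase and mitoplast_RNase were -0.21 ± 0.102 and -0.11 ± 0.0991, and the difference between mitoplast_RNase and IP_RNase_ProK did not pass (0.21 ± 0.0989, edgeR adjusted p = 1.0). The call ended in 4 of 6 fits with 1 library fewer (without IP_RNase_ProK 1 or 3, or crude_RNase 2 or 3), with DESeq2 (adjusted p = 0.144) and in a fit of these 2 groups alone (adjusted p = 0.0689). The metaxins Mtx1 and Mtx2, its partners on the cytosolic face, ranged from -0.29 to 0.05 over the 3 comparisons.

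For the intermembrane space, 0 of 7 genes passed by edgeR in any of the 3 comparisons, with medians of -0.26, -0.20 and -0.12. At an unadjusted p under 0.05, 2, 2 and 1 were lower, beside 10.5%, 10.5% and 9.95% of all genes. The small TIM Timm8b (ENSRNOG00000009888) had the lowest fold change of the uncalled genes, and the fewest counts, 16 to 37 per library. It stood at 8.30, 8.83 and 5.33 CPM in crude_RNase and 4.66, 3.98 and 5.95 in IP_RNase, where 1 library overlapped, at -0.62 ± 0.266 (edgeR adjusted p = 0.178). Timm9 (ENSRNOG00000008222), which forms a ring with Timm10, was among the 2 highest, with 6.06, 8.57 and 9.81 CPM in crude_RNase and 11.2, 9.21 and 8.70 in IP_RNase, at 0.27 ± 0.224 (edgeR adjusted p = 0.581). Timm10 itself was at -0.38, -0.26 and -0.33, Timm10b at -0.31, -0.20 and -0.04, and Timm8a1 at -0.26, -0.52 and -0.25, with SEs of 0.172 to 0.228, none called. Chchd4, the oxidoreductase that folds these small proteins by disulfide bonds, was at -0.19, -0.06 and -0.12. Of the carrier translocase of the inner membrane, Timm22 was measured, at -0.19, -0.24 and -0.04, none called.

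TIM23, the presequence translocase, had 5 genes, of which 2, 2 and 1 fell, beside 5.09%, 5.04% and 4.54% of all genes. Timm23 (ENSRNOG00000019811), its channel subunit, had 26.5, 29.2 and 28.3 CPM in crude_RNase, against 16.6, 12.9 and 15.6 in IP_RNase, 15.0, 16.2 and 19.2 in IP_RNase_ProK and 14.8, 14.7 and 16.2 in mitoplast_RNase. Every captured library lay below every crude one. The log2 fold changes were -0.89 ± 0.144, -0.74 ± 0.137 and -0.87 ± 0.14 (edgeR adjusted p = 5.81e-06, 8.62e-05 and 4.99e-06), and 1.61% of all genes tested had a lower value than Timm23 between IP_RNase and crude_RNase. The RefSeq gene table lists 8 pseudogenes named after Timm23, so reads of near-identical copies may have been split or lost in counting and its level is uncertain.

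Timm17a and Timm17b are alternative subunits of the same translocase, and their values lay on opposite sides of 0. Timm17a (ENSRNOG00000007040) had 15.5, 22.0 and 27.2 CPM in crude_RNase, against 14.0, 13.7 and 11.9 in IP_RNase, 14.3, 14.6 and 14.1 in IP_RNase_ProK and 15.0, 16.3 and 14.9 in mitoplast_RNase. It fell in the first 2 captured groups by 0.69 ± 0.168 and 0.56 ± 0.161 on the log2 scale (edgeR adjusted p = 0.00441 and 0.0196) and was at -0.46 ± 0.159 in mitoplast_RNase (adjusted p = 0.0834). The crude libraries spread widely, and the call in IP_RNase ended without crude_RNase 3, at -0.49 (adjusted p = 0.109). In IP_RNase_ProK the call ended in 5 of 6 fits with 1 library fewer, all but the one without crude_RNase 1. The adjusted p was 0.0752, 0.0526 and 0.0665 without IP_RNase_ProK 1, 2 and 3, and 0.0536 and 0.264 without crude_RNase 2 and 3, where the last value was -0.37. With DESeq2 it was 0.0704. Timm17b (ENSRNOG00000063664) had 9.42, 13.4 and 11.8 CPM in crude_RNase and 15.2, 13.9 and 13.7 in IP_RNase, higher without overlap, at 0.32 ± 0.181 (edgeR adjusted p = 0.359), and was at 0.39 ± 0.175 and 0.39 ± 0.175 in the other 2 groups, uncalled. Their ratio within a library, which no scaling changes, was 1.64, 1.64 and 2.31 Timm17a counts per Timm17b count in crude_RNase, and 0.923, 0.982 and 0.867 in IP_RNase, 1.04, 1.05 and 0.815 in IP_RNase_ProK and 0.96, 1.02 and 1.13 in mitoplast_RNase. Each captured group lay wholly below crude_RNase (two-sided exact permutation p = 0.1, the smallest that 3 against 3 allows, and 0.3 when adjusted over 21 tests of 7 pairs of genes). Of the other TIM23 genes, the receptor Timm50 lay between -0.10 and 0.03 and Timm21 between -0.32 and -0.17, none called.

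**Figure D3:**
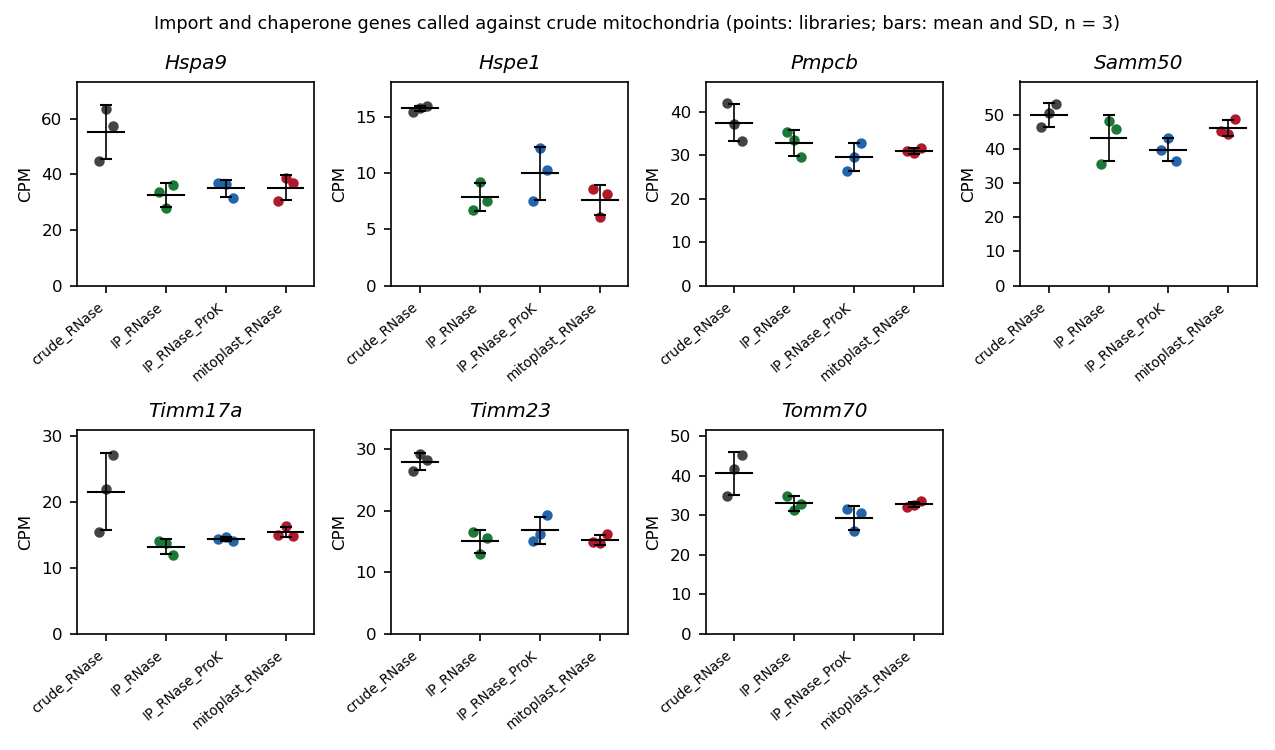
CPM (y axis) in every library for the 7 genes called against crude_RNase in at least 1 comparison, by preparation (x axis), with the mean and SD of 3 libraries. Timm23, Hspa9 and Hspe1 lie below the crude libraries in all 9 captured libraries, while Pmpcb, Samm50 and Tomm70 overlap in at least 1 group and Timm17a overlaps in mitoplast_RNase.

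The import motor had 5 genes in the table, of which Hspa9 fell in all 3 comparisons and the other 4 in none. Hspa9 (ENSRNOG00000019525) encodes mortalin, the matrix Hsp70 that pulls precursors through TIM23. It had 44.9, 63.7 and 57.5 CPM in crude_RNase, against 33.8, 27.9 and 36.2 in IP_RNase, 36.8, 36.6 and 31.4 in IP_RNase_ProK and 30.3, 38.7 and 36.8 in mitoplast_RNase. The lowest crude library lay above the highest captured one. Log2 fold changes were -0.75 ± 0.115, -0.65 ± 0.111 and -0.64 ± 0.111 (edgeR adjusted p = 2.01e-06, 1.69e-05 and 2.61e-05). Grpel1 (ENSRNOG00000006593), the nucleotide exchange factor of mortalin, had 25.6, 26.5 and 25.2 CPM in crude_RNase and 20.8, 19.4 and 20.2 in IP_RNase. Although these ranges do not overlap, its change of -0.36 ± 0.131 did not pass (edgeR adjusted p = 0.098). Timm44, which tethers mortalin to the channel, and Pam16, a regulator of its J protein, lay between -0.12 and -0.07, and Dnajc19 between -0.27 and 0.03.

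The processing peptidase has a catalytic subunit, Pmpcb, and a partner that binds the presequence, Pmpca. Pmpcb (ENSRNOG00000012693) fell in IP_RNase_ProK, with 26.5, 29.5 and 32.9 CPM against 41.9, 37.2 and 33.4 in crude_RNase, at -0.35 ± 0.113 (edgeR adjusted p = 0.0439). The ranges were separated by a narrow gap, and the call ended in 4 of 6 fits with 1 library fewer (without IP_RNase_ProK 1 or 2, or crude_RNase 1 or 2), with DESeq2 (adjusted p = 0.167), in a fit of these 2 groups alone (adjusted p = 0.102), with no filter (adjusted p = 0.0509) and with the replicate number as a block (adjusted p = 0.0597). In IP_RNase it had 35.4, 33.6 and 29.5 CPM (-0.20 ± 0.114) and in mitoplast_RNase 30.9, 30.4 and 31.8 (-0.28 ± 0.112), both uncalled. Pmpca (ENSRNOG00000026775), with the second most counts of the uncalled genes, had 50.9, 39.1 and 46.0 CPM in crude_RNase and 44.3, 49.3 and 50.6 in IP_RNase, at 0.08 ± 0.0986 (edgeR adjusted p = 0.753), and lay at 0.13 and -0.07 in the other groups.

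The chaperonin of the matrix is built from Hspd1, the Hsp60 chamber, and Hspe1, the Hsp10 lid, whose genes lie head to head. Hspe1 (ENSRNOG00000051624) had the lowest fold change of the 33 genes in IP_RNase and mitoplast_RNase. It stood at 15.5, 15.8 and 16.0 CPM in crude_RNase, against 6.76, 9.21 and 7.56 in IP_RNase, 7.51, 12.2 and 10.3 in IP_RNase_ProK and 8.57, 6.09 and 8.10 in mitoplast_RNase, on 29 to 69 raw counts. The crude libraries were close to each other and above every captured one. Log2 fold changes were -1.01 ± 0.203, -0.67 ± 0.189 and -1.06 ± 0.199 (edgeR adjusted p = 0.000325, 0.017 and 0.000109), and 1.30% of all genes had a lower value in the first. The call in IP_RNase_ProK ended without IP_RNase_ProK 1 (adjusted p = 0.22) and with DESeq2 (adjusted p = 0.0723). Hspd1 (ENSRNOG00000014525) had 27.1, 37.2 and 37.8 CPM in crude_RNase and 25.2, 28.4 and 25.0 in IP_RNase, where the groups overlapped through crude_RNase 1. It was at -0.37 ± 0.126, -0.27 ± 0.122 and -0.32 ± 0.123 (edgeR adjusted p = 0.0697, 0.222 and 0.129), and without crude_RNase 1 it was called in all 3 comparisons. The RefSeq gene table lists 20 pseudogenes named after Hspd1, 1 after Hspe1 and 2 after Hspa9. It also lists 4 for Tomm7 and 2 each for Pmpcb, Tomm20 and Timm8a1. For Tomm70, Tomm5, Chchd4 and Timm21 it lists 1 each. Counts of all these genes are uncertain in the same way as those of Timm23. The table also lists 1 pseudogene named after Timm17al1, not Timm17a, and whether it affects counts of Timm17a was not tested.

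The promoter windows of the chaperonin genes overlap. RefSeq windows of 300 bases, from 250 before to 50 after the annotated start (assembly GRCr8, not the build of the counts), were found for 32 of the 33 genes, all but Tomm34. Those of Hspd1 and Hspe1, on opposite strands of chromosome 9, share 211 bases. Windows are shown for the 3 genes called in all comparisons and for Grpel1, the partner of Hspa9, 5′ to 3′ on the strand of the gene, with motif matches in capitals.
Hspe1, chr9:64084077-64084376, plus strand: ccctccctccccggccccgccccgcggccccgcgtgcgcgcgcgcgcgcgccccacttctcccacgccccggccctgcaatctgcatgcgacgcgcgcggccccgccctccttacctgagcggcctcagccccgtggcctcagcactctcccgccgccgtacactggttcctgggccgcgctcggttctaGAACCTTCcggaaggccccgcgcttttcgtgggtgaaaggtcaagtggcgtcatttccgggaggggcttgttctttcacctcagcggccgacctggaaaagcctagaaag
Hspa9, chr18:26828349-26828648, minus strand: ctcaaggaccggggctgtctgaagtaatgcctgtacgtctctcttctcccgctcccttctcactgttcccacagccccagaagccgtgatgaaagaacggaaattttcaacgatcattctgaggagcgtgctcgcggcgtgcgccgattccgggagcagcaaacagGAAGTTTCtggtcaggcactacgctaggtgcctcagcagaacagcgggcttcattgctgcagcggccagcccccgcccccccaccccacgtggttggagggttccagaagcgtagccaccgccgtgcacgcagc
Timm23, chr16:7442570-7442869, minus strand: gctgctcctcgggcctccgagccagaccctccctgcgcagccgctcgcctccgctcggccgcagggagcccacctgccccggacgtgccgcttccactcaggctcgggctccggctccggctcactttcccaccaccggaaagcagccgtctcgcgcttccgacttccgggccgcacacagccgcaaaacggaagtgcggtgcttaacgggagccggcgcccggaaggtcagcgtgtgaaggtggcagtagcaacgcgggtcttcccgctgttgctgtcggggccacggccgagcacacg
Grpel1, chr14:78522819-78523118, minus strand: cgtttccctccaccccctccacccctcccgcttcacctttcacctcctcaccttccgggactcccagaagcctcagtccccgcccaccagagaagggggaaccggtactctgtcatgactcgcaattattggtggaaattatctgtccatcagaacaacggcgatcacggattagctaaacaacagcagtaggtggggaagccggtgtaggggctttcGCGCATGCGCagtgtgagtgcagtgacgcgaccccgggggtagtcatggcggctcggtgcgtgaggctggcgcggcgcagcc
The capitals in Hspe1 and Hspa9 match GAANNTTC, a pair of heat shock half-sites, and those in Grpel1 are the core bound by NRF1, a regulator of nuclear genes for mitochondria. Searched on both strands, the heat shock pair was found in 3 of 32 windows (9.38%), those of Hspa9, Hspd1 and Hspe1, beside 8.59% of 33469 RefSeq windows, and the match is the same bases in Hspd1 and Hspe1. The NRF1 core was found in 3 windows (9.38%), of Chchd4, Grpel1 and Tomm7, beside 0.852% of all, and TCAAGGTCA, a site of estrogen-related receptors, in 1 (3.12%), of Timm8b, beside 0.433%. Binding was not measured, and a match is a description of letters. The windows of the 32 genes had a median GC content of 58.0%, beside 51.7% for all.

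Ratios of raw counts were also compared for the other 6 of the 7 pairs of partner genes, chosen after the data were seen. The ratio of Hspe1 to Hspd1 counts was 0.57, 0.424 and 0.422 in crude_RNase, against 0.269, 0.325 and 0.303 in IP_RNase, 0.28, 0.444 and 0.343 in IP_RNase_ProK and 0.353, 0.207 and 0.298 in mitoplast_RNase. It was lower without overlap in IP_RNase and mitoplast_RNase (two-sided exact permutation p = 0.1, adjusted p = 0.3) and overlapped in IP_RNase_ProK (exact p = 0.3, adjusted p = 0.485). Timm10 to Timm9 stood at a mean ratio of 1.79 ± 0.409 (SD, n = 3) in crude_RNase and 1.13 ± 0.215 in IP_RNase, without overlap, and overlapped in the other groups. Pmpcb to Pmpca was 0.834 ± 0.114 in crude_RNase and 0.599 ± 0.101 in IP_RNase_ProK, without overlap. The ratios of Tomm40l to Tomm40, Timm8a1 to Timm8a2 and Mtx1 to Mtx2 overlapped in all 3 comparisons. In 21 such tests 0 had an adjusted p under 0.3, and the design allows no raw p under 0.1.

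**Figure D4:**
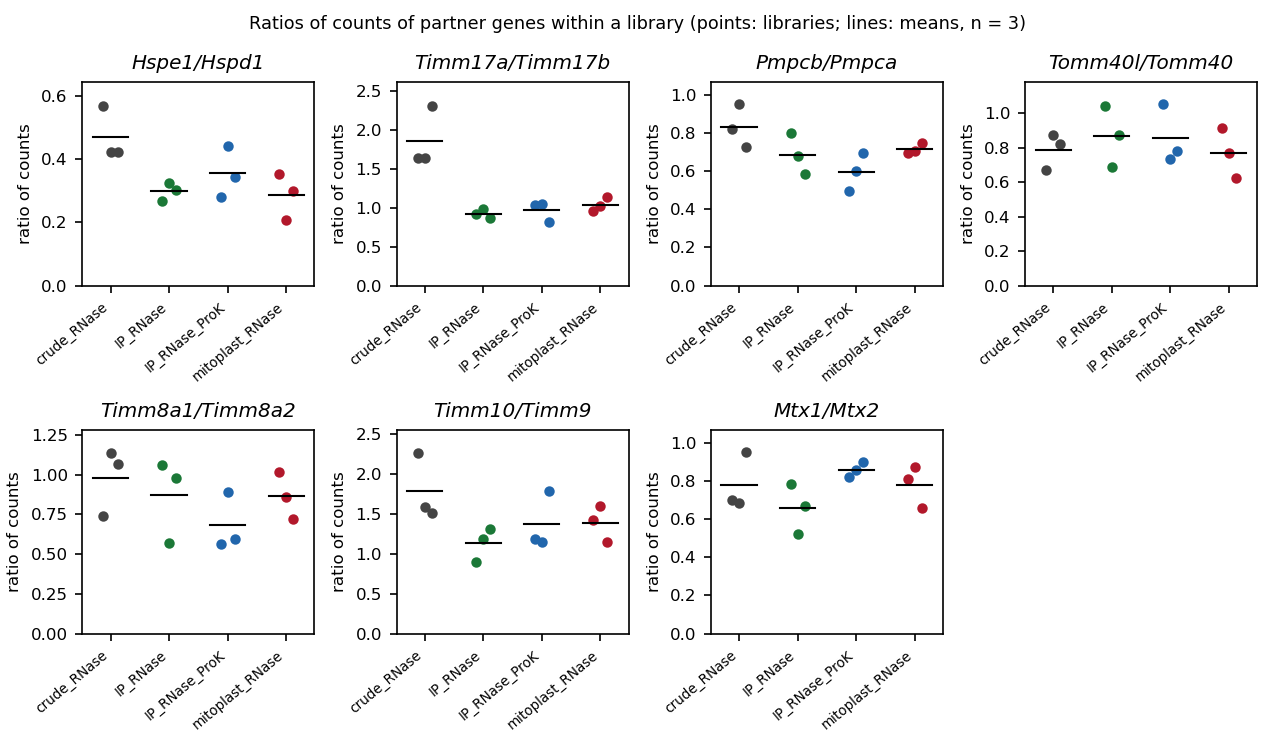
Ratio of raw counts of 2 partner genes in each library (y axis) by preparation (x axis), with lines at the mean of 3 libraries. Timm17a per Timm17b is at least 1.64 in the crude libraries and at most 1.13 in the 9 others, while Tomm40l per Tomm40 overlaps throughout.

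The next comparisons asked whether protease treatment or removal of the outer membrane changed the counts of these genes among captured mitochondria. Because these counts were close to those of all genes, values near 0 do not show that the messages were unaffected. Of the 33 genes, 0 passed between IP_RNase_ProK and IP_RNase, beside 0.14% of all genes (0.0302% higher, 0.11% lower), 0 between mitoplast_RNase and IP_RNase, beside 0.155% (0.0227% higher, 0.132% lower), and 0 between mitoplast_RNase and IP_RNase_ProK, beside 0% (edgeR). At an unadjusted p under 0.05 there were 1, 0 and 3 genes, beside 4.39%, 4.51% and 1.45% of all genes higher and 4.47%, 4.42% and 1.35% lower. CPM ranges did not overlap for 2 higher and 1 lower genes after proteinase K (8.36% and 8.27% of all genes), for 4 and 2 in mitoplasts against IP_RNase (7.9% and 8.05%), and for 5 and 2 in mitoplasts against IP_RNase_ProK (4.71% and 4.76%). DESeq2 gave 0 in the last comparison and no adjusted p for the 33 genes in the first 2. Log2 fold changes ranged from -0.47 to 0.33, from -0.30 to 0.31 and from -0.38 to 0.34, with SEs of 0.0892 to 0.28. The gene with an unadjusted p under 0.05 after proteinase K was Tomm5, at -0.47 ± 0.234 (edgeR adjusted p = 0.562). It had 8.22, 4.44 and 5.56 CPM in IP_RNase_ProK and 10.3, 7.22 and 8.24 in IP_RNase, with overlap. The 3 between mitoplast_RNase and IP_RNase_ProK were Mtx2 at 0.34 ± 0.151, Samm50 at 0.21 ± 0.0989 and Pmpca at -0.21 ± 0.0932, each without overlap and with an edgeR adjusted p of 1.0. The genes called in all 3 comparisons with crude_RNase were not called here. Timm23 was at 0.15 ± 0.152 after proteinase K and 0.02 ± 0.155 in mitoplasts, Hspa9 at 0.10 ± 0.12 and 0.11 ± 0.12, and Hspe1 at 0.33 ± 0.213 and -0.05 ± 0.225. The 7 TOM genes had medians of 0.09 and 0.03 in IP_RNase_ProK and mitoplast_RNase against IP_RNase, and the 3 SAM genes -0.12 and 0.10. Scaled on the mitochondrial mRNAs, which themselves fell after proteinase K and in mitoplasts, 32 and 33 of the 33 were called higher, with 94% and 93.4% of all genes.

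How much of a library the 33 genes took depended on what they were set against. In crude_RNase they took 0.0476% ± 0.00547 (SD, n = 3) of all gene counts. The captured groups had 0.083% ± 0.0034 for IP_RNase, 0.0878% ± 0.00229 for IP_RNase_ProK and 0.0884% ± 0.002 for mitoplast_RNase. Each captured group lay above crude_RNase without overlap, by 1.74, 1.84 and 1.86 times (exact permutation test, two-sided, p = 0.1, or 0.15 when adjusted for 6 comparisons). As a share of counts outside the mitochondrial genes, the crude_RNase mean was the highest: 0.0945% ± 0.00313 in crude_RNase, against 0.0888% ± 0.000113 in IP_RNase, 0.0903% ± 0.00285 in IP_RNase_ProK and 0.0914% ± 0.00147 in mitoplast_RNase. IP_RNase lay wholly below crude_RNase (exact p = 0.1, adjusted p = 0.3), and the others overlapped it. Per 100 counts of olfactory receptor genes, a measure added after the data were seen, the 33 genes had 7.0 ± 0.362 counts in crude_RNase, against 5.17 ± 0.294 in IP_RNase, 5.6 ± 0.128 in IP_RNase_ProK and 5.72 ± 0.33 in mitoplast_RNase. On this measure each captured group lay below crude_RNase without overlap (two-sided exact permutation p = 0.1, adjusted p = 0.12). The share of the mitochondrial mRNAs went the opposite way to the first of these measures. It was 22.9% to 28.8% of counts in crude_RNase and 1.49% to 5.59% in captured libraries.

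**Figure D5:**
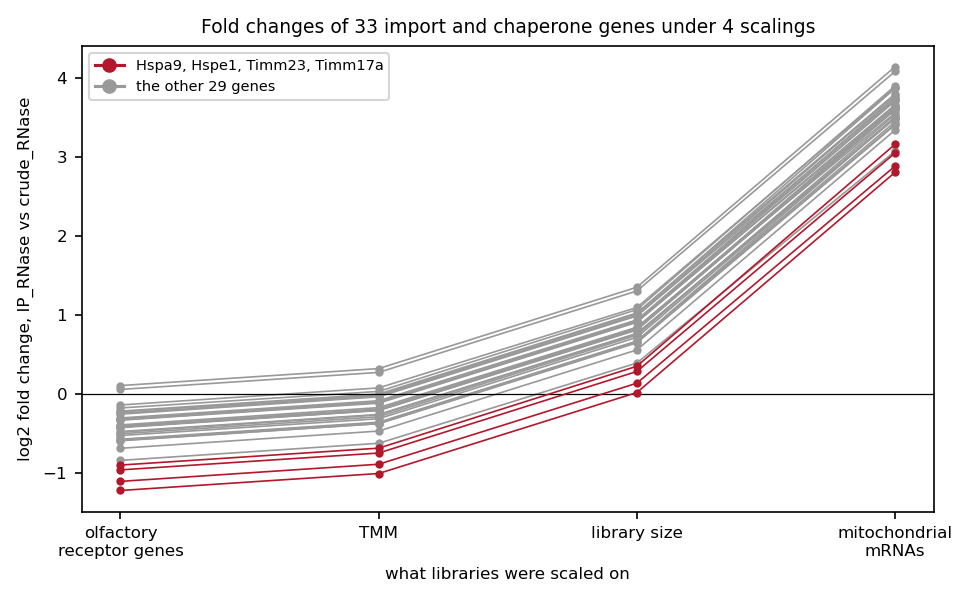
Log2 fold change between IP_RNase and crude_RNase (y axis) for each of the 33 genes when libraries were scaled on 4 different references (x axis), with 1 line a gene. The scaling moves all genes together, from a median of -0.42 on the olfactory receptor genes to 3.60 on the mitochondrial mRNAs. By this shift alone the order of the genes hardly changes. Hspe1, Timm23, Hspa9 and Timm17a, the genes called under TMM scaling, therefore stay near the bottom of the set.

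Of 40 further genes for import, processing, folding and turnover of mitochondrial proteins, 6 fell and 34 did not pass between IP_RNase and crude_RNase, with a median of -0.12, and 0 rose. Of all genes, 5.09% fell in that comparison. Examples were Chchd3, a subunit of the complex that shapes cristae, at -1.06 ± 0.119 and Mtch1, an outer membrane protein of the carrier family, at -0.69 ± 0.111 (edgeR adjusted p = 4.01e-10 and 5.6e-06). In IP_RNase_ProK and mitoplast_RNase 7 and 6 of the 40 fell, beside 5.04% and 4.54% of all genes. A list of 11 cytosolic genes held 10 chaperones and co-chaperones and Ube2g2, a ubiquitin-conjugating enzyme. In IP_RNase 7 of the 11 fell, and 6 in each of the other groups. The median over the 11 in IP_RNase was -0.46, and the remaining 4 were uncalled. Without Ube2g2, which fell in all 3, 6 of 10 fell in IP_RNase, with a median of -0.43, and 5 in each of the others. The lowest were Hsp90ab1, the constitutive Hsp90, at -2.25 ± 0.117 and Hspa8, the constitutive Hsp70, at -1.27 ± 0.0793 (edgeR adjusted p = 6.89e-23 and 2.37e-19). Among the captured groups 0 of these 40 and 11 genes were called by edgeR, beside 0.14%, 0.155% and 0% of all genes.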

How the data were processed

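RNA of 12 mitochondrial preparations was sequenced from ribosomal RNA-depleted libraries (Zymo-Seq RiboFree, per the labels' protocols). The deposited table holds raw counts per Ensembl gene made by the authors with FastQC 0.74, cutadapt 4.6, STAR 2.7.11a and HTSeq on mRatBN7.2, per the submitters' processing notes. The annotation release, strand setting and handling of multiply mapped reads were not given in the sources used here. Groups follow the titles; for crude mitochondria the source label names immunoprecipitation instead. Columns were matched by library description, and 0 columns of other samples were present.

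Genes were kept by filterByExpr (minimum count 10; 26483 of 30560 genes, 86.7%) and tested with edgeR 4.0.16 in R 4.3.3 (quasi-likelihood F test, TMM, 1 model of 4 groups and 12 libraries). P-values were Benjamini-Hochberg adjusted over all genes tested, with a threshold of 0.05. SE is the absolute log2 fold change over the square root of F. The scaling factors lay between 0.525 and 0.679 for crude_RNase and between 1.12 and 1.23 otherwise. The script was tested on simulated counts for IP_RNase against crude_RNase, with 200 genes changed. It called 46% of genes with a true log2 change of 0.5, 83% of those with 1, and 10 unchanged genes. A gene left uncalled may therefore still have changed. DESeq2 1.42.0, other scalings, filters, fits of 2 groups, a replicate block and leaving out each library were the alternatives. Libraries with the same replicate number did not deviate together (correlations of -0.102 to 0.0665), so the numbers were not treated as pairs.

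The members and lists were chosen with earlier results of these data known. The 7 genes called in any comparison were named, with the 3 most counted, 2 highest and 2 lowest of the others between IP_RNase and crude_RNase. Hspd1, Grpel1, Tomm20 and Tomm5 are described as partners or exceptions, chosen after their values were seen. All 33 names matched the RefSeq gene table (GRCr8), used for names, and promoter windows came from RefSeq. The partner ratios were chosen after the data were seen. PCR copies are not independent molecules.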

Additional observations from a re-analysis of the deposited data

How the results depend on the processing

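The sign of the fold changes rests on the scaling, and which scaling reflects absolute amounts was not tested. Scaled by library size, the genes called numbered 30, 32 and 30 in IP_RNase, IP_RNase_ProK and mitoplast_RNase against crude_RNase (medians 0.82, 0.84 and 0.96), and scaled on the mitochondrial mRNAs 33, 33 and 33 (medians 3.60, 4.70 and 4.81), all higher. Of all genes, 94.8%, 95.3% and 95.3% were called higher on the first scaling and 99.8%, 99.9% and 99.9% on the second. Under these 2 scalings the log2 fold changes in IP_RNase were 0.29 and 3.05 for Hspa9, 0.0188 and 2.81 for Hspe1, 0.82 and 3.63 for Pmpcb, 0.82 and 3.64 for Samm50, 0.35 and 3.16 for Timm17a, 0.14 and 2.89 for Timm23, 0.74 and 3.54 for Tomm70, 1.03 and 3.80 for Tomm34, 1.02 and 3.87 for Tomm22, 0.39 and 3.07 for Timm8b, and 0.56 and 3.34 for Tomm7. In IP_RNase_ProK they were 0.44 and 4.34 for Hspa9, 0.41 and 4.27 for Hspe1, 0.73 and 4.57 for Pmpcb, 0.76 and 4.64 for Samm50, 0.53 and 4.41 for Timm17a, 0.35 and 4.20 for Timm23, and 0.64 and 4.51 for Tomm70. In mitoplast_RNase they were 0.45 and 4.33 for Hspa9, 0.0174 and 3.88 for Hspe1, and 0.20 and 4.07 for Timm23. Scaled on the olfactory receptor genes, 14 and 6 were called lower in IP_RNase and mitoplast_RNase (16.9% and 6.64% of all genes), the median in IP_RNase was -0.42, and Pmpca was at -0.14. Against IP_RNase, the medians in IP_RNase_ProK and mitoplast_RNase were 1.20 and 1.18 on the mitochondrial mRNAs, with 32 and 33 genes called (94% and 93.4% of all genes higher), and 0.16 and 0.14 on the olfactory receptor genes. DESeq2 called 3 genes in IP_RNase_ProK against crude_RNase, where edgeR called 7 (3.64% and 5.04% of all genes lower). The difference in summed level as a share of nuclear counts was -0.00573, -0.00419 and -0.00308 percentage points against crude_RNase and 0.00154 between IP_RNase_ProK and IP_RNase. For genes near 0, Tomm34 in IP_RNase was at 0.00155 with DESeq2 size factors, 0.0025 with no filter, 0.0131 with a minimum count of 50 and 0.0011 with 2 groups. Leaving out each library in turn gave -0.0526 to 0.062 for Tomm34, -0.0174 to 0.178 for Pmpca and -0.133 to 0.0687 for Tomm22.

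Leaving out 1 library at a time, 3 to 7, 4 to 7 and 3 to 6 genes were called against crude_RNase, with the highest counts without crude_RNase 1. Of all genes, 3.96% to 5.46%, 3.78% to 6.06% and 3.67% to 5.55% were called lower in these fits. Hspa9 and Timm23 were called in all of these fits. With the replicate number as a block, 4, 6 and 3 genes were called, beside 4.96%, 4.94% and 4.41% of all genes lower. Pmpcb in IP_RNase_ProK was lost, and no other call of a named gene changed. Libraries with the same number did not deviate together, and 6 of 12 correlated best with their own number. DESeq2 gave no adjusted p for the 33 genes in 2 comparisons of captured groups, so its count is not given there. Genes with few counts, such as Timm8b with 16 to 37, could pass only with large changes.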
